A study of Mus musculus with 30 samples.

Results

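The mRNA bound to tagged ribosomes of *Sox10* lineage cells in the small bowel *muscularis externa* (*ME*) was compared between mice 72 h after intestinal manipulation (IM72h) and naïve mice. The libraries were taken by the group entry of the count table for this time point, which holds 4 IM72h and 3 naïve *RiboTag* libraries, 7 of the 22 libraries read here from a series of 30 labelled samples. Both groups carried the inducible transgene of the line B6 Tg(Sox10-icre/ERT2)388Wdr/J together with the HA-tagged *Rpl22* allele of B6N.129 Rpl22tm1.1Psam/J mice, so that tamoxifen places an HA tag on ribosomes of cells with an active *Sox10* promoter. The IM72h mice had undergone abdominal surgery with mechanical manipulation of the small bowel, the study's model of postoperative ileus, and the naïve mice had not. According to the study's methods, the mice were adult males, the cross also carried a tdTomato reporter, and tamoxifen was given for several days about a week ahead of the experiments.

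Within a group, libraries are numbered in name order, since the names match no replicate number of the labels. The labels do not tie libraries to animals, but the study counts the replicates of this experiment as animals, so the spread between libraries is taken as that between mice. *RiboTag* libraries of the same cross taken 3 h and 24 h after manipulation (IM3h and IM24h, 4 each) and total *ME* RNA of the 72 h time point served for side by side values, and IM24h for 1 further test. The naïve *ME* libraries came from another Cre line (B6.Cg-Tg73.12Mvs/J(Gfap-cre)) than the IM72h *ME* libraries, so line and treatment cannot be told apart there.

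Enteric glia are the peripheral glial cells that surround the neurons of the gut wall. They descend from the neural crest, and SOX10 is the transcription factor that maintains their identity, and they are known by the calcium-binding protein S100B and the intermediate filament GFAP. After injury or inflammation they turn reactive, a state called gliosis, in which glia change their filaments, secrete cytokines and may divide. A ribosome pulldown reads the mRNAs under translation in the tagged cells, and mRNA of other cells that sticks to the beads is read along with them.

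The IM72h libraries differed from the naïve ones before any single gene was considered. They held 3010306 to 3857087 estimated counts against 4826379 to 4935655, and 6 genes made of ribosomal RNA sequence or lying in it (*AY036118*, *CT010467.1*, *mt-Rnr1*, *mt-Rnr2*, *Gm42418* and *Gm26917*) took 71.5% ± 9.33 (SD, n = 4) of them against 8.93% ± 6.16 (SD, n = 3). The shares in IM72h libraries 1 to 4 were 65.0%, 64.8%, 84.7% and 71.5%, all above the naïve range of 4.78% to 16.01%. These genes were left out for their share, which is given as a description. Without these 6 genes, 510307 to 1356005 counts remained per IM72h library and 4145326 to 4618644 per naïve library, and every level below is in CPM, the count per 1000000 of these counts after scaling by the trimmed mean of M values (TMM). Genes with at least 1 count numbered 9650 ± 1386 (SD, n = 4) at IM72h and 17604 ± 751 (SD, n = 3) in naïve mice (exact permutation test, two-sided, p = 0.0286, as low as 4 against 3 libraries can go). With all libraries thinned to about 510307 counts the numbers were 9005 ± 1037 and 15722 ± 496.

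The IM72h libraries also resembled each other little. Across genes, Spearman's rho was 0.355 to 0.436 between pairs of IM72h libraries, 0.851 to 0.897 between naïve pairs and 0.265 to 0.512 between the groups, and a pair of IM72h libraries shared 53.3% to 59.1% of the detected genes where naïve pairs shared 97.9% to 98.5%. These correlations are across genes, which are not independent replicates, and depth differed with the group. The common dispersion, the squared relative spread that edgeR estimates over all genes, was 3.60 within IM72h and 0.171 within naïve mice. IM72h library 2 stood apart, with 11723 genes detected where the other 3 had 8808 to 9051, and for genes named by rule whose call changes without it that value is given too. The part of depth and of the ribosomal RNA share in the gene results below was not tested.

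**Figure D1:**
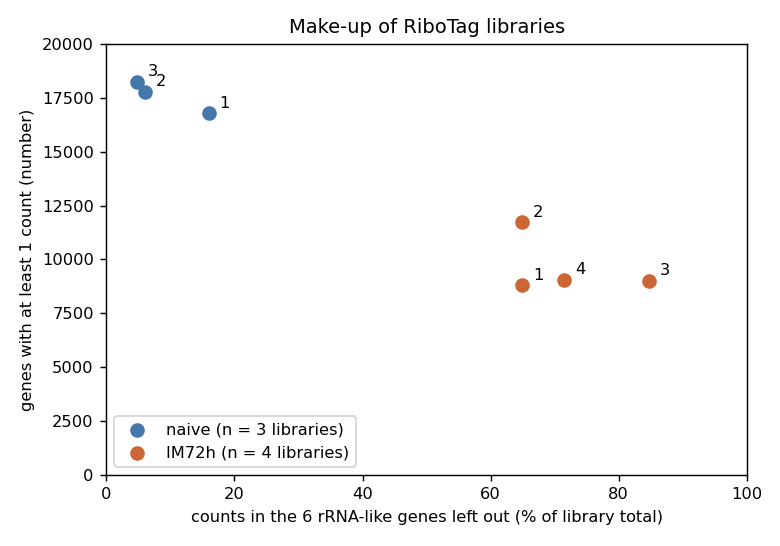
Make-up of the 7 RiboTag libraries, with the share of counts in the 6 left out ribosomal RNA genes on the x axis (% of library total) and the genes detected (1 count or more) on the y axis. Each numbered point is 1 library, and the 4 IM72h libraries lie at 64.8% or more with at most 11723 genes, away from the 3 naïve libraries.

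The glial label was checked against 15 markers of enteric glia. All 15 had counts in all 3 naïve libraries, whereas 3 of them, with *S100b* and *Scn7a* among these, had counts in all 4 IM72h libraries. The summed level of the 15 markers was 3222, 452, 2656 and 2905 CPM in IM72h libraries 1 to 4 and 5245, 5675 and 4671 CPM in naïve libraries 1 to 3, so the groups did not overlap and IM72h library 2 was the lowest. *Sox10* itself, whose promoter drives the Cre (chr15:79154908-79165240, minus strand, mm10), stood at 22.9, 5.16, 0 and 2.40 CPM at IM72h and at 974, 2068 and 1137 CPM in naïve mice. All IM72h libraries were below all naïve ones, and the fall passed the test (log2 fold change -7.43, SE 1.06, adjusted p = 0.00890, edgeR quasi-likelihood test, Benjamini-Hochberg adjustment over 11345 genes). *Sox10* passed the filter on low counts, described below, through the naïve libraries alone, so this call is a description. The defining transcription factor of the label was thus at 22.9 CPM or below at IM72h. How far the pulldown enriched glial mRNA in these libraries was not tested, so the IM72h values describe what the libraries hold and cannot be read as levels of glia alone, and they are called IM72h *RiboTag* libraries in what follows. In bulk samples, fewer cells of a type and less RNA per cell cannot be told apart.

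*S100b*, the calcium-binding protein, had 1984, 198, 1559.9 and 2099 CPM at IM72h against 1409, 856 and 1053 CPM in naïve mice, and its difference did not pass the test (log2 fold change 0.40, SE 0.646, adjusted p = 0.901). Here library 2 was 198 CPM and the other 3 IM72h libraries lay above the highest naïve one. *Scn7a*, a sodium channel of non-myelinating glia, overlapped as well, with 400.2, 52.5, 616 and 457 CPM against 718, 642 and 553 CPM (adjusted p = 0.737).

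In the test 4 of the 15 markers fell and 0 rose, where 10.8% of all genes tested were called lower and 0.934% higher. Their median log2 fold change was -2.94, where all genes tested had -0.43. Medians are of fitted values, and those of the lists with genes at a floor of 3 counts per library are the same with such genes at their bound unless a second value is given. The 4 were *Sox10*, *Gpr37l1*, *Ngfr* and *Sox2*. Each passed the filter on low counts through the naïve libraries alone, so this count and their p-values are a description. *Gpr37l1*, an orphan receptor of glia, had 328, 443 and 330.1 CPM in naïve mice and at most 1 count in any IM72h library, which makes it at least 98.9-fold lower (adjusted p = 0.00890). This bound and those below set 3 counts per library as the floor of the IM72h group and cover counting error only. *Ngfr*, the low affinity neurotrophin receptor, was at least 35.7-fold lower (adjusted p = 0.0178), and *Sox2*, a factor of glial progenitors, at least 12.4-fold lower (adjusted p = 0.0424), with 0 counts of *Sox2* in every IM72h library. For *Gfap* the IM72h libraries had 0, 0, 33.4 and 17.99 CPM and the naïve libraries 259, 146 and 167 CPM, without overlap, and its difference did not pass the test (log2 fold change -3.92, SE 1.58, adjusted p = 0.190). In total *ME* RNA of this time point the median of the same list was -0.20, with 5 members higher and 6 lower in a comparison that called 29.2% of 16855 genes higher and 28.1% lower. There *Sox10* had a log2 fold change of 2.38 (adjusted p = 4.25e-04) and *Gfap* of 1.04 (adjusted p = 1.56e-04), in mice of 2 lines.

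**Figure D2:**
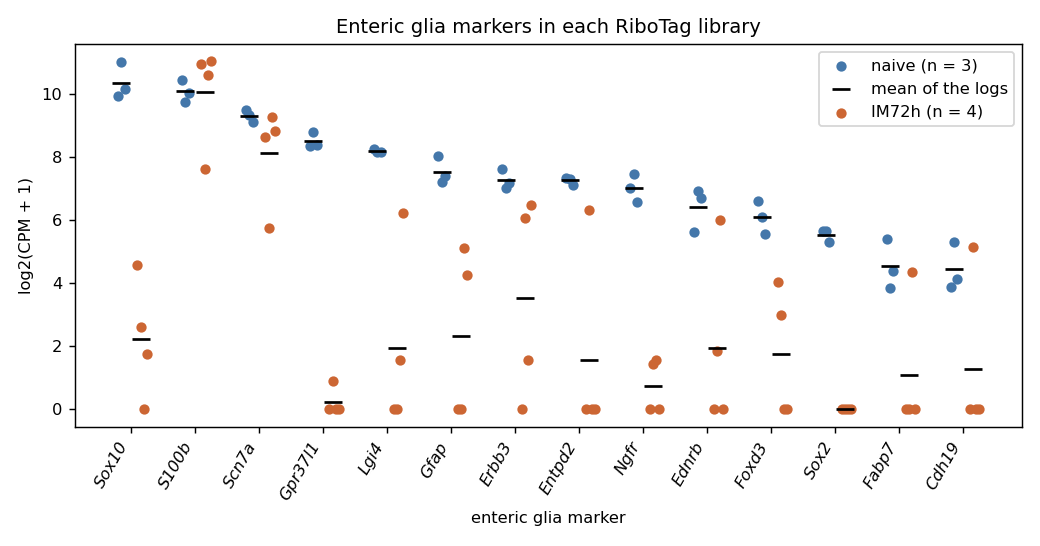
Levels of 14 of the 15 enteric glia markers as log2(CPM + 1), with 1 point per library for 3 naïve (blue) and 4 IM72h (orange) RiboTag libraries and bars at the mean of the logs. The naïve points of a marker lie close together, whereas at IM72h most markers have libraries at 0 and S100b alone has a mean level with the naïve one.

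The edgeR quasi-likelihood test over 11345 of the 22113 genes in the table called 106 genes higher (0.934%) and 1227 lower (10.8%) at IM72h at an adjusted p under 0.05. At the threshold that the study used, an unadjusted p under 0.05 with a change of more than 2-fold, the numbers were 414 (3.65%) and 1745 (15.4%). The falls were mostly losses of detection. Of the 1227 lower genes, 679 had no count in any IM72h library and 1163 had at most 3 counts in every IM72h library, whereas each of them had counts in all 3 naïve libraries. In contrast, 97 of the 106 higher genes had counts in all 4 IM72h libraries, a pattern that 29.7% of the genes tested had, and 95 of the 106 had no overlap between the groups, against 373 of all genes tested (3.29%). The filter on low counts asked for 7.37 CPM, before TMM scaling, in 3 libraries. Of the higher genes 51 reached it through the IM72h libraries and would not have through the naïve ones, and of the lower genes 1182 did so through the naïve libraries alone, against 596 and 5616 of all genes tested. Such genes enter the test through the group in which they are high, so their calls, the counts and medians that hold them and the adjusted p-values printed for some of them are given as a description. Predicted genes, with symbols made of Gm or AC and digits or ending in Rik, made up 41.5% of the higher genes, 11.3% of the lower genes and 11.2% of the genes tested, and protein-coding genes 57.3%, 88.9% and 88.8% of those annotated. Leaving out library 2 gave 232 higher and 3225 lower genes, with 92 of the 106 and 1225 of the 1227 among them, and leaving out any 1 naïve library gave 17 to 25 higher and 465 to 660 lower genes.

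Of the 77 genes that are named here by rule and passed the test, 8 did so under each of the 18 other settings tried: the falls of *Sox10*, *Gpr37l1*, *Ncam1*, *B2m*, *mt-Cytb*, *mt-Atp6* and *mt-Nd4*, and the rise of *Rplp1*. Among these, *Sox10* and *Gpr37l1* passed the filter on low counts through the naïve libraries alone, so their calls are a description.

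Genes of the wider glial lineage were described by 3 lists. Of the 10 tested genes of Schwann cell repair and glial progenitors, 0 rose and 3 fell (*Sox2*, *Ngfr* and *Ncam1*), at a median log2 fold change of -0.41. Over all genes tested 0.934% were called higher and 10.8% lower, at a median of -0.43. The summed level of the list's 15 genes in the table was 450.5 to 673 CPM at IM72h and 1759 to 2175 CPM in naïve mice, without overlap. *Ncam1*, the adhesion molecule of neurons and non-myelinating glia, carried most of the naïve sum. It had 116, 152, 96.4 and 226 CPM at IM72h and 1493, 1421 and 1209 CPM in naïve mice, a fall that every library shared (log2 fold change -3.22, SE 0.439, adjusted p = 0.00890). *Jun*, the master factor of Schwann cell repair, lay at 65.2, 127, 72.8 and 125 CPM against 189, 135 and 119.8 CPM and did not pass the test (adjusted p = 0.815).

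Of 6 tested genes for myelin and lipid-rich membranes, 3 fell, 0 rose and the median was -5.47, or -2.55 with the 3 genes at the floor set at their bound. Over all genes tested 10.8% were called lower and 0.934% higher. *Mal*, a proteolipid of compact myelin and lipid rafts, was at 0 in all IM72h libraries and at 110.2, 62.3 and 89.3 CPM in naïve mice, at least 23.5-fold lower (adjusted p = 0.0278). *Cnp*, the phosphodiesterase of myelin, was at least 42.2-fold lower (adjusted p = 0.00963). *Mbp*, the myelin basic protein, had 189.6, 193 and 222 CPM in naïve mice and 0.918, 79.2, 0 and 0 CPM at IM72h, where library 2 held nearly all of its counts (adjusted p = 0.366).

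Reactive astrocyte genes, a list drawn from brain gliosis, showed 1 fall and 0 rises among 11 tested members and a median of -2.26, with falls near the share of all genes called lower (10.8%). The fall was *S1pr3*, a receptor for sphingosine 1-phosphate, with 109, 123 and 154 CPM in naïve mice and 0 in all IM72h libraries, at least 34.7-fold lower (adjusted p = 0.0143). Other members did not pass the test. Besides *Hspb1*, a small heat shock protein (adjusted p = 0.455), *Vim*, the vimentin of immature and reactive glia, had 108, 662, 129.8 and 52.8 CPM at IM72h against 1132, 1500.4 and 941 CPM (log2 fold change -2.32, SE 0.777, adjusted p = 0.0951), and without library 2 its log2 fold change was -3.68 (adjusted p = 0.0186). *Nes*, the nestin of glial progenitors, had 275, 287, 210.5 and 344 CPM at IM72h and 79.4, 54.2 and 117 CPM in naïve mice, with every IM72h library above every naïve one (log2 fold change 1.74, SE 0.584, adjusted p = 0.0959). In comparisons that share the naïve libraries, *Nes* had a log2 fold change of 4.33 at IM3h (adjusted p = 4.79e-05) and of 2.53 at IM24h (adjusted p = 0.0295), and *Gfap* of 2.30 (adjusted p = 2.85e-04) and -0.01 (adjusted p = 0.996).

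The largest falls by the naming rule were genes at 0 in all 4 IM72h libraries, which passed the filter through the naïve libraries alone. *Sema3b*, a secreted semaphorin that guides axons, had 179, 261 and 156 CPM in naïve mice and was at least 53.6-fold lower. *Tecr*, the last enzyme of very long chain fatty acid elongation, was at least 38.4-fold lower and *Kif1a*, the kinesin of synaptic vesicle precursors, at least 36.1-fold lower. *Rasl11b*, a small GTPase of the RAS family, was at least 30.1-fold lower and *Lrrn2*, a leucine-rich repeat protein of neural tissue, at least 29.3-fold lower. For *Art3*, *Optc* and *Arl1* the bounds were 27.3-fold, 26.2-fold and 25.8-fold. *Art3* encodes a relative of ADP-ribosyltransferases, *Optc* a small proteoglycan and *Arl1* a GTPase of the Golgi. Without any 1 of the 3 naïve libraries, each of these genes except *Sema3b* lost its call while its fold change stayed negative.

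The mRNA of highest mean level at IM72h after the 6 left out genes was *Gm10800* (chr2:98666547-98667301, minus strand, mm10), a predicted gene. It had 72516, 15722, 69682 and 49823 CPM in IM72h libraries 1 to 4 and 1726, 1212 and 1653 CPM in naïve libraries 1 to 3, so every IM72h library was higher and library 2 was the lowest of the 4 (log2 fold change 5.08, SE 0.549, adjusted p = 0.00890). It belongs to 12 genes of the table whose transcripts share stretches of 31 bases, 9 on chromosome 9, 2 on chromosome 2 and 1 on chromosome 14. These genes were singled out after their values were seen. Their transcripts are near copies of each other, so the split of counts among the 12 is uncertain and their sum is the firmer value. The first 240 bases of the annotated transcripts of *Gm10800*, of *Gm10717* (chr9:3025417-3033289, plus strand) and of *Gm21738* (chr14:19415857-19418930, minus strand), 1 from each chromosome, are given from 5′ to 3′ to show how close they are. Each begins with the start codon of the annotated reading frame, and capitals mark a stretch of 30 bases that 26 of the 95038 annotated transcripts of genes in the table hold (0.0274%), transcripts of all 12 genes among them. The stretch is known as part of the mouse major satellite, the tandem repeat of the heterochromatin around centromeres.
Gm10800: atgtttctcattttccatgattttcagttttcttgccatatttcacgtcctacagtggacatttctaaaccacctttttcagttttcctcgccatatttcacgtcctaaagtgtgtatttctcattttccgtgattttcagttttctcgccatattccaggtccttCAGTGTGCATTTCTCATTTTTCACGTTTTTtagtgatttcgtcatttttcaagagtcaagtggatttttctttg
Gm10717: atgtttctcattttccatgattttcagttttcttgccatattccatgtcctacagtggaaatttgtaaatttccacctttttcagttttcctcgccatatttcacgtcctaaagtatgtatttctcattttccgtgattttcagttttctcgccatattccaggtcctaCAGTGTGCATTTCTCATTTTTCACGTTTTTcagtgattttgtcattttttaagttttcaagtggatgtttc
Gm21738: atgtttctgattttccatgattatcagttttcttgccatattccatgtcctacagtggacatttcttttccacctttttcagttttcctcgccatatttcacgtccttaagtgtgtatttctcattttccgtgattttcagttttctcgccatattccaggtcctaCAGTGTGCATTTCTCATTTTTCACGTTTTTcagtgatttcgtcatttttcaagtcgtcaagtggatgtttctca

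Of the 12 repeat genes, 11 were tested and 10 rose, with log2 fold changes from 4.04 to 5.27. *Gm10721* did not pass the test (adjusted p = 0.0988) and *Gm10720* was not tested. Together they took 9.33%, 1.98%, 10.2% and 7.14% of the counts kept in IM72h libraries 1 to 4, a mean of 7.15% ± 3.67 (SD, n = 4), against 0.217% ± 0.0317 (SD, n = 3) in naïve mice. Without library 2 the IM72h mean was 8.88% ± 1.56 (SD, n = 3). The share was 0.0320% ± 0.0170 (SD, n = 4) in the *RiboTag* libraries of IM3h and ranged from 0.0710% to 2.65% in the 4 libraries of IM24h. In total *ME* RNA it was 0.0171% ± 0.00722 (SD, n = 3) in naïve mice and 0.00738% ± 0.00347 (SD, n = 4) at IM72h, where 11 of the 12 genes were in the table. The IM72h libraries also had the fewest counts kept, and the part of depth in the rise was not tested. With the 12 genes left out too, an alternative added after their values were seen, the test called 89 genes higher and 1206 lower.

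**Figure D3:**
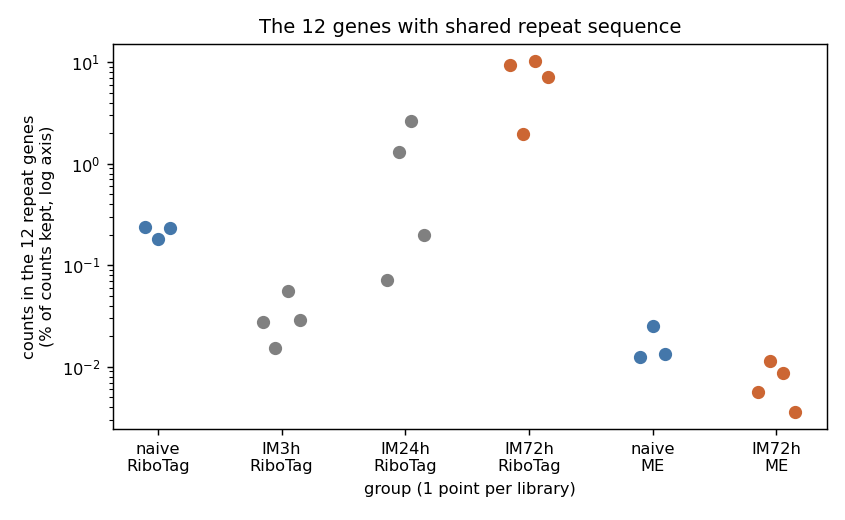
Share of the counts kept that fell on the 12 genes with shared repeat sequence (y axis, %, log scale), with 1 point per library in each of 6 groups. The 4 IM72h RiboTag libraries lie at 1.98% to 10.2%, above the 3 naïve RiboTag libraries, the IM24h libraries spread up to 2.65%, and total ME RNA lies at or below 0.0254% in both groups.

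Of the genes named here by rule, *Rplp1* was the 1 rise that held in all settings. It encodes an acidic protein of the large ribosomal subunit's stalk (chr9:61913284-61914542, minus strand, mm10) and had 14019.9, 13685, 7270.2 and 9458 CPM at IM72h and 2076, 1209 and 1705 CPM in naïve mice. All IM72h libraries were above all naïve ones (log2 fold change 2.74, SE 0.363, adjusted p = 0.00890), and the call held when 3 reference genes of the study (*Actb*, *Hsp90ab1* and *Rplp1* itself) set the scale. Chaperones of the endoplasmic reticulum and the cytosol rose in part. In the list of unfolded protein and heat shock response, 4 of 21 tested genes rose and 2 fell (*Sdf2l1* and *Hspa1a*), at a median of 0.00. Over all genes tested 0.934% were called higher and 10.8% lower, so the falls were near that share. *Sdf2l1* lost its call in 11 of the 17 settings in which it was tested. The summed level of the list was 26746, 12634, 24401 and 24792 CPM at IM72h and 9958, 10027 and 8099 CPM in naïve mice. *Calr*, the calcium-binding chaperone calreticulin, had 3297, 1134, 3261 and 2755 CPM at IM72h against 495, 385 and 453 CPM, lowest in library 2 but without overlap (log2 fold change 2.56, SE 0.449, adjusted p = 0.00983). *Hsp90aa1*, the inducible HSP90 of the cytosol, had 7902, 1985, 5724 and 6863 CPM against 1829, 1935 and 1421 CPM (log2 fold change 1.70, SE 0.455, adjusted p = 0.0374), with library 2 just above the highest naïve library. It lost this call in 9 of 18 settings, DESeq2 among them.

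The other 2 rises of that list, named after their values were seen, were *Hsp90ab1*, the constitutive HSP90 (log2 fold change 1.28, adjusted p = 0.0370), and *Hsp90b1*, its relative in the endoplasmic reticulum (log2 fold change 1.53, adjusted p = 0.0271). *Hspa5*, the chaperone that marks the unfolded protein response, was 703, 545, 181 and 379 CPM at IM72h and 345, 387 and 263 CPM in naïve mice and did not pass the test (adjusted p = 0.834), nor did *Atf4*, a transcription factor of that response (adjusted p = 0.919). Scaled by the 3 reference genes, which include *Hsp90ab1*, 0 genes of this list rose and 4 fell.

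*Nusap1*, a microtubule-binding protein of the mitotic spindle, was among the largest rises, with 114, 83.5, 116 and 93.6 CPM at IM72h and 0, 0 and 0.940 CPM in naïve mice. *Slc10a4l* had 0 counts in every naïve library and 8.26, 43.03, 100.3 and 9.60 CPM at IM72h, at least 56.4-fold higher. A group of 9 *Rps12* pseudogenes had identical counts in all libraries, 34.9, 20.7, 37.4 and 1.20 CPM at IM72h for each, at least 32.9-fold higher. These, *Slc10a4l* and *Nusap1* passed the filter on low counts through the IM72h group alone. *Rn7s1* and *Rn7s2* shared their counts as well. Counts of such copies cannot be assigned to 1 of them, and the 106 higher genes held 97 distinct count profiles. *Tatdn1*, a DNase of the TatD family, and *Akap5* ranked 7 and 13 by their mean level at IM72h and rose too, with adjusted p-values of 0.0178 and 0.0147. The latter, an anchor of protein kinase A, had 4206, 3771, 9221 and 3934 CPM against 1688, 1016 and 814 CPM (log2 fold change 2.17, adjusted p = 0.0147).

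Chemosensory receptors, the odorant receptors of the nose and the pheromone receptors of the vomeronasal organ, were more abundant at IM72h as a whole. The summed level of the 312 olfactory receptor genes in the table was 4471, 3326, 8075 and 6921 CPM in IM72h libraries 1 to 4 and 463, 261 and 265 CPM in naïve mice, and that of 122 vomeronasal receptor genes 2626, 1745, 4662 and 4355 CPM and 154, 151 and 153 CPM. Neither sum overlapped between the groups, and both were lowest in library 2 among the IM72h libraries. No test was made of these sums. Single receptors seldom recurred. Of the 312 olfactory receptors 13 had counts in all 4 IM72h libraries and 89 to 154 in any 1 of them, while in each naïve library 104 to 113 had counts. The naïve libraries held far more counts, so these numbers are of unlike depth, and the numbers at equal depth were not tested. In the vomeronasal list 14 of 122 had counts in all 4. The filter kept 27 olfactory and 23 vomeronasal receptors, of which 1 and 3 rose and 0 fell. A receptor could pass that filter through its IM72h counts alone, so these numbers are given as a description. The 3 vomeronasal receptors were *Vmn2r113*, *Vmn1r88* and *Vmn1r80*, the last with 0 counts in library 2. The most abundant olfactory receptors, *Olfr1181* and *Olfr157*, were not called (adjusted p = 0.101 and 0.205).

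*Vmn2r113* was even across libraries, with 238, 217, 321 and 309 CPM at IM72h and 5.09, 7.65 and 6.58 CPM in naïve mice. *Vmn1r88* had 29.4, 60.2, 151 and 152 CPM against 3.31, 0.675 and 0.235 CPM, and the pseudogene *Olfr1191-ps1* 133, 93.8, 66.9 and 31.2 CPM against 0.509, 0.675 and 0.940 CPM. These 3 passed the filter through the IM72h libraries, so their levels are a description. The study names *Olfr373*, *Olfr95* and *Olfr1254* for this time point. *Olfr373* had 132, 24.1, 1.97 and 25.2 CPM at IM72h and 0.254, 1.57 and 1.17 CPM in naïve mice, without overlap, and missed the threshold (log2 fold change 5.44, SE 2.09, adjusted p = 0.161). *Olfr95* had 75.3, 12.05, 1.97 and 16.8 CPM against 2.80, 0.450 and 0.940 CPM, with an overlap in library 3 (adjusted p = 0.222), and *Olfr1254* was not tested, at 3.67, 73.2, 1.97 and 136 CPM against 2.04, 4.95 and 0.940 CPM.

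Genes of DNA replication and mitosis, which mark dividing cells, had a median log2 fold change of 2.32 over 18 tested members. They gave 3 rises (*Chaf1a*, *Cenpf* and *Top2a*) and 1 fall (*Mcm6*), where 0.934% of all genes tested were called higher and 10.8% lower. Their summed level was 1326, 1854, 901 and 1222 CPM at IM72h and 295, 185 and 255 CPM in naïve mice, so every IM72h library was above every naïve one, with or without library 2. *Top2a*, the topoisomerase of replicating cells, had 198, 396, 112 and 164 CPM against 33.1, 18.2 and 29.1 CPM (log2 fold change 3.02, SE 0.779, adjusted p = 0.0331). *Cenpf*, a kinetochore protein, had 388, 361, 114 and 46.8 CPM against 13.5, 3.15 and 23.5 CPM (adjusted p = 0.0387), and without library 2 its adjusted p was 0.0610. *Chaf1a*, which loads histones onto new DNA, had 224, 89.5, 68.8 and 202 CPM against 6.87, 8.32 and 5.64 CPM. *Chaf1a* and *Cenpf* passed the filter through the IM72h libraries, so their calls and the p-values of *Cenpf* are a description. *Cenpf* lost its call in 7 of 18 settings. Other members appeared in some libraries only. *Mki67*, the standard mark of proliferation, had 41.3, 168, 88.5 and 1.20 CPM at IM72h and 11.5, 9.22 and 7.05 CPM in naïve mice, with an overlap in library 4 (log2 fold change 3.01, SE 1.60, adjusted p = 0.392), and 5 of the 24 genes in the table had counts in all 4 IM72h libraries.

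*Mcm6*, a subunit of the replicative helicase, went the other way, at least 3.51-fold lower than 13.7, 13.05 and 12.2 CPM (adjusted p = 0.0106). Scaled by the 3 reference genes, 0 members rose and the median was 0.78, still above the -2.08 of all genes on that scale. In total *ME* RNA at 72 h all 27 genes of the list were higher, with a median of 3.44. That comparison, of mice of 2 lines, called 29.2% of 16855 genes higher and 28.1% lower. At IM24h 2 of 21 tested *RiboTag* members were higher and 0 lower, in a comparison that called 0.281% of 15310 genes higher and 0.144% lower.

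Markers of the other cells of the gut wall were present in both groups. Of 15 marker lists, 14 had a member in the table, and by summed level 3 lists were higher at IM72h without overlap (macrophages, monocytes and repair macrophages, and adipocytes), 3 were lower (enteric glia, interstitial cells of Cajal and mesothelium) and 8 overlapped. The 14 macrophage markers summed to 1325, 1201, 1050.4 and 1144 CPM at IM72h and 467, 243 and 325 CPM in naïve mice (median log2 fold change 1.79). *Itgam*, the integrin CD11b of myeloid cells, rose, with 78.9, 164, 596 and 151 CPM against 7.89, 3.60 and 3.29 CPM, and it was the 1 call among 11 tested members, passing the filter through the IM72h libraries. *C1qa*, a complement subunit of tissue macrophages, had 519, 679.9, 293 and 302 CPM against 135, 28.3 and 102 CPM without overlap (log2 fold change 2.34, SE 0.678, adjusted p = 0.0512). The defining markers *Cd163*, *Cd14* and *Fcgr1* were at 0 in all IM72h libraries, *Adgre1* in all but library 4, and *Csf1r* had 122, 86.9, 66.9 and 133 CPM against 98.99, 84.1 and 78.7 CPM (adjusted p = 0.962).

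The 8 markers of monocytes and repair macrophages in the table summed to 685 to 1549 CPM at IM72h and 322 to 521 CPM in naïve mice, with 0 of 6 tested members called (median 0.97). *Ccr2*, the receptor that brings monocytes into tissue, had 139.5, 188, 29.5 and 29.99 CPM against 16.5, 12.6 and 12.9 CPM, without overlap (adjusted p = 0.238), and *Fn1*, the fibronectin of wound matrix, 451, 1165, 478 and 596 CPM against 379, 239.8 and 288 CPM (adjusted p = 0.228). *Trem2* was at 0 in all IM72h libraries and *Spp1* in libraries 1 and 4. In total *ME* RNA 14 of 15 macrophage markers and all 10 of the monocyte list were higher at 72 h, with medians of 2.28 and 3.02. That comparison, of mice of 2 lines, called 29.2% of 16855 genes higher and 28.1% lower. *Itgam*, itself on the macrophage list, *Ctss* and the mitosis sum were higher at IM72h along with the summed markers. The macrophage and mitosis sums were both lowest in library 3, where *Itgam* was highest, and *Ctss* was lowest in library 1. The part of macrophage mRNA in them was not tested.

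Smooth muscle, the bulk of the *ME*, gave 7467 to 26039 CPM over 11 markers at IM72h and 21421 to 30712 CPM in naïve mice, with all 11 in every library, overlapping groups and a median of -0.94. *Lmod1*, an actin nucleator of smooth muscle, rose, with 2367, 2251, 2331 and 1352 CPM against 1085, 666 and 788 CPM (log2 fold change 1.29, SE 0.370, adjusted p = 0.0482), although it lost this call in 10 of 18 settings and in 1 more, the scaling by 3 reference genes, its log2 fold change was -0.29. *Mylk*, the myosin light chain kinase, had 3390.0, 4929.9, 549 and 2443 CPM against 6911, 9439 and 12854 CPM, without overlap (adjusted p = 0.0834, and 0.0346 without library 2), and *Myh11*, the smooth muscle myosin, 2327, 6421, 2412 and 1989 CPM against 2232, 2398 and 3453 CPM (adjusted p = 0.898). Fibroblast markers summed to 1455 to 3756 CPM and 2093 to 2655 CPM, with library 2 the highest, 0 of 8 tested members called and a median of 0.01, which was -1.64 under the scaling by 3 reference genes.

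Neuronal markers summed to 1056 to 2123 CPM at IM72h and 1841 to 4176 CPM in naïve mice (median -1.23). Of the 15, *Nos1*, the nitric oxide synthase of inhibitory motor neurons, fell, with 0.918, 24.96, 1.97 and 13.2 CPM against 362, 503 and 211 CPM (log2 fold change -5.09, SE 1.07, adjusted p = 0.0158), while *Uchl1* and *Syt1* had 616, 610.2, 149 and 569 CPM and 675, 142, 441 and 373 CPM, both overlapping with naïve mice. Of 3 tested markers of interstitial cells of Cajal, the pacemaker cells, 0 were called, and the sum of 4 was 9.18 to 306 CPM against 324 to 450.1 CPM (median -1.44). *Ano1*, their chloride channel, had 0, 59.4, 19.7 and 0 CPM against 107, 154 and 163 CPM (adjusted p = 0.466) and *Etv1*, their transcription factor, 1.84, 136, 108 and 39.6 CPM against 149, 232 and 200.1 CPM (adjusted p = 0.631).

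Mesothelial markers, of the outer lining of the gut, summed to 0 to 104 CPM at IM72h and 174 to 513 CPM in naïve mice (median -3.63 over 4 tested, or -3.47 with *Upk3b* at its bound), and *Upk3b*, a uroplakin, fell to 0 in all libraries from 89.6, 35.5 and 43.2 CPM (at least 15.1-fold lower, adjusted p = 0.0445). *Msln* and *Lrrn4* did not pass the test (adjusted p = 0.250 and 0.865). *Lrrn4* had 0, 102, 0 and 0 CPM at IM72h against 96.4, 66.8 and 60.4 CPM, and without library 2 it was called lower (adjusted p = 0.0186). Of 9 tested epithelial markers 4 fell (median -1.36), against 10.8% of all genes, and all 4 did so from at most 69.5 CPM in naïve mice. These 4 passed the filter on low counts through the naïve libraries alone, so their calls are a description. The mucin *Muc2* of goblet cells, the keratin *Krt18*, the enterocyte keratin *Krt20* and the phosphatase *Alpi* were at least 10.3-fold, 7.85-fold, 9.70-fold and 7.97-fold lower, with adjusted p-values of 0.0373, 0.0385, 0.0354 and 0.0264. *Krt18* was at 69.5 CPM in naïve library 1 and at 9.22 and 8.69 CPM in naïve libraries 2 and 3. Other members had higher means at IM72h without a call. *Cdh1*, the epithelial cadherin, had 69.8, 109, 27.5 and 0 CPM against 18.1, 13.3 and 16.2 CPM (adjusted p = 0.784) and *Epcam*, an adhesion molecule, 0, 20.7, 136 and 10.8 CPM against 27.7, 6.75 and 42.99 CPM (adjusted p = 0.955), while *Lgr5*, the stem cell receptor, was not tested, at 0.918, 49.9, 64.9 and 0 CPM against 5.09, 0 and 0.470 CPM. These 3 and *Kdr*, *Cdh5*, *Hbb-bs*, *Adipoq* and *Cidec*, given among the lists that follow, were chosen after their values were seen.

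The remaining lists gave 0 calls. Endothelial markers summed to 46.8 to 315 CPM at IM72h and 78.7 to 108 CPM in naïve mice, with 3 of 9 tested (median 1.06), and erythroid markers to 555 to 744 CPM and 279 to 802 CPM, with 4 of 5 tested (median -0.11). The adhesion molecule *Pecam1*, *Plvap* of fenestrated vessels and the globins *Hba-a1* and *Hba-a2* had adjusted p-values of 0.895, 0.626, 0.801 and 0.816, each at a positive log2 fold change. Other members were lower at IM72h without overlap. The endothelial receptor *Kdr* was at 0 in all IM72h libraries against 5.60, 7.20 and 19.3 CPM and the cadherin *Cdh5* at 0, 0.861, 0 and 0 CPM against 9.16, 6.75 and 11.5 CPM, neither of them tested, and the globin *Hbb-bs* had 0, 4.30, 0 and 0 CPM against 20.1, 156 and 36.2 CPM (adjusted p = 0.118). Adipocyte markers summed to 861, 152, 126 and 146 CPM and 31.05 to 105 CPM, of which *Fabp4*, a fatty acid carrier, had 860.1, 127, 60.98 and 1.20 CPM and *Plin1*, which coats lipid droplets, 0.918, 0, 1.97 and 145 CPM at IM72h (median 2.35 over these 2, adjusted p = 0.402 and 0.823). The defining adipocyte genes *Adipoq* and *Cidec*, which were not tested, were at 0 in all IM72h libraries and at 0, 15.97 and 5.40 CPM and 0, 7.65 and 1.41 CPM in naïve mice. Of the lymphocyte list 2 of 12 genes were tested. *Ptprc*, the leukocyte antigen CD45, was detected at IM72h in library 2 alone, at 238 CPM against 14.5, 17.1 and 5.40 CPM in naïve mice, and without that library it was called lower (adjusted p = 0.0186). *Ighm*, the heavy chain of IgM, had 36.6, 40.5 and 27.95 CPM in naïve mice and counts in IM72h library 2 alone (adjusted p = 0.0551, and 0.0186 without library 2). No neutrophil gene was tested and 5 of 11 were in the table. The G-CSF receptor *Csf3r* had 106, 32.7, 1.97 and 1.20 CPM at IM72h and 5.85, 0 and 0 CPM in naïve mice, and *Retnlg* 0, 67.1, 0 and 0 CPM and 0, 0 and 0 CPM. No mast cell gene was in the table.

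**Figure D4:**
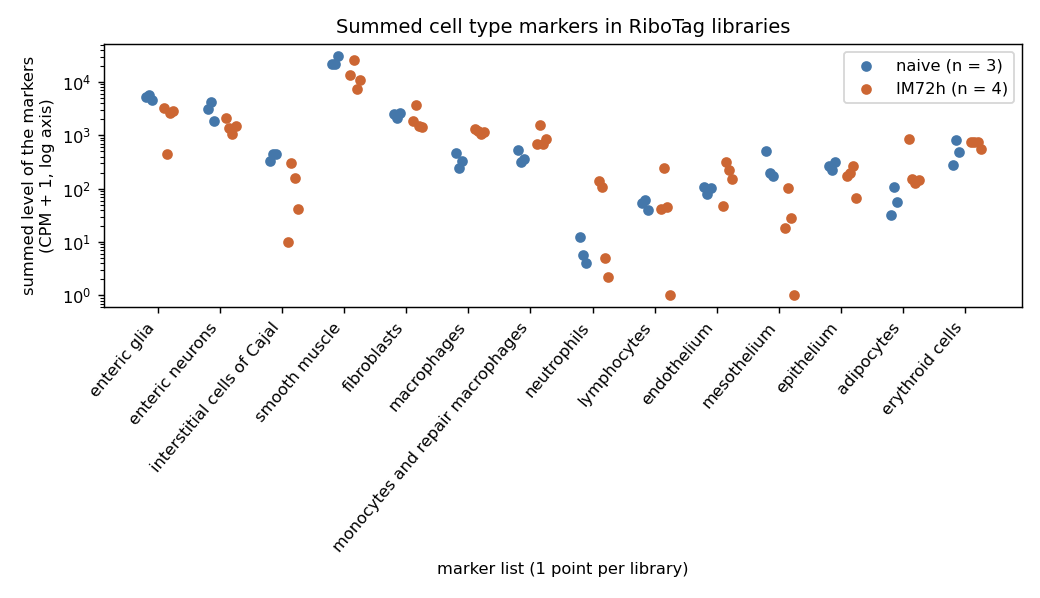
Summed level of 14 lists of cell type markers in CPM + 1 (y axis, log scale), with 1 point per library for 3 naïve (blue) and 4 IM72h (orange) RiboTag libraries. Macrophage, monocyte and adipocyte sums lie higher at IM72h, enteric glia, interstitial cell and mesothelium sums lie lower, and smooth muscle has the highest level in both groups.

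Most respiratory chain mRNAs of the mitochondrial genome fell. Of the 13 mRNAs encoded by the mitochondrial genome 8 fell and 0 rose, at a median log2 fold change of -2.15. Over all genes tested 10.8% were called lower and 0.934% higher. The summed level of the 13 mRNAs was 12001, 19410.5, 9513 and 8769 CPM at IM72h and 43755, 55786 and 67969 CPM in naïve mice, without overlap. *mt-Cytb*, cytochrome b of complex III, had 516, 1275, 669 and 597 CPM against 4319, 8659 and 8639.7 CPM (log2 fold change -3.24, SE 0.423, adjusted p = 0.00890). *mt-Atp6*, a subunit of ATP synthase, had 553, 697, 448 and 288 CPM against 3233, 5478 and 4704 CPM (log2 fold change -3.17, SE 0.394, adjusted p = 0.00890), and *mt-Nd4*, of complex I, 1553, 3018, 1017 and 992 CPM against 8453, 13840.3 and 15686 CPM (log2 fold change -2.94, SE 0.445, adjusted p = 0.00890). In the 3 genes every IM72h library was below every naïve one. *mt-Co2* fell as well (log2 fold change -2.70, adjusted p = 0.0254), whereas *mt-Nd5* had 171, 719.5, 604 and 462 CPM against 446, 411 and 643 CPM and overlapped (adjusted p = 0.993).

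Side by side, and with shared naïve libraries, 6 of the 13 were lower at IM24h (median -1.70) and 9 at IM3h (median -1.52), where the comparison called 9.44% of 15867 genes higher and 4.15% lower. In total *ME* RNA at 72 h 12 of 13 were lower (median -1.88). That comparison, of mice of 2 lines, called 29.2% of 16855 genes higher and 28.1% lower.

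Of 75 tested respiratory chain genes of the nucleus, 4 fell and 0 rose, a share below the 10.8% of all genes, although the median was -1.71 and the sums were 3753 to 10430.3 CPM at IM72h against 12136 to 13698 CPM in naïve mice. The 4 were *Ndufa9*, *Ndufv1* and *Ndufs7* of complex I and *Atp5c1* of ATP synthase, at least 8.80-fold, 23.6-fold, 26.4-fold and 24.9-fold lower, with adjusted p-values of 0.0314, 0.0350, 0.0372 and 0.0286. Without library 2, 21 of these genes were called lower, where the lower calls over all genes went from 1227 to 3225. Of the cytosolic ribosomal proteins, 2 rose, 3 fell and 72 had no call (median -0.76), with falls below and rises above the shares of all genes (10.8% and 0.934%), and their sums of 18018 to 41756 CPM and 18810.4 to 24007 CPM overlapped. Beside *Rplp1*, *Rps9* rose (log2 fold change 1.79, adjusted p = 0.0164, named after its values were seen). Among the falls, *Rps3* went from 278, 259 and 290.1 CPM to 3.67, 48.2, 9.84 and 23.99 CPM (adjusted p = 0.0286) and *Rps23* from 301, 522 and 355 CPM to 2.75, 79.2, 3.93 and 8.40 CPM (adjusted p = 0.0446). Ribosomal protein genes have many near-identical pseudogenes, so the assignment of counts to single members is uncertain. *Rpl22*, whose protein carries the tag, had 32.1, 125, 21.6 and 41.98 CPM against 71.00, 111 and 99.1 CPM (adjusted p = 0.854).

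In cholesterol synthesis 3 of 17 tested genes fell and 0 rose (median -0.48), where 10.8% of all genes were called lower at a median of -0.43. These were *Hmgcs1*, the synthase before the rate-limiting step, with 0.918, 1.72, 1.97 and 14.4 CPM against 86.5, 214 and 98.2 CPM (adjusted p = 0.0455), *Fdft1*, the squalene synthase, and *Insig1*, the sterol sensor's anchor, at least 7.82-fold and 7.13-fold lower (adjusted p = 0.0271 and 0.0221). In glycolysis and hypoxia 2 of 19 fell and 0 rose (median -1.04), a share near the 10.8% of all genes called lower. The falls were the aldolase *Aldoc* of brain and glia at least 12.2-fold (adjusted p = 0.0444) and the angiogenic factor *Vegfa* at least 6.41-fold lower (adjusted p = 0.0398). *Vegfa* lost this call in 10 of the 17 settings in which it was tested, DESeq2 among them. The list's sums of 1046 to 2094 CPM and 2818 to 3431 CPM did not overlap. Matrix and wound repair genes showed 3 falls, 0 rises and a median of -0.55 over 28 tested, again a share near that of all genes. *Sparc*, a secreted collagen-binding protein, had 533, 1189, 273 and 812 CPM against 2478, 3688 and 2550.5 CPM (log2 fold change -2.05, SE 0.481, adjusted p = 0.0239). *Timp3*, an inhibitor of matrix proteases, had 60.6, 44.8, 106 and 0 CPM against 982, 1306 and 1089 CPM (adjusted p = 0.0286, and 0.0566 without library 2), and *Mmp2*, a gelatinase, was at least 7.48-fold lower (adjusted p = 0.0245). The collagens *Col1a1* and *Col1a2* overlapped between the groups (adjusted p = 0.925 and 0.941).

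**Figure D5:**
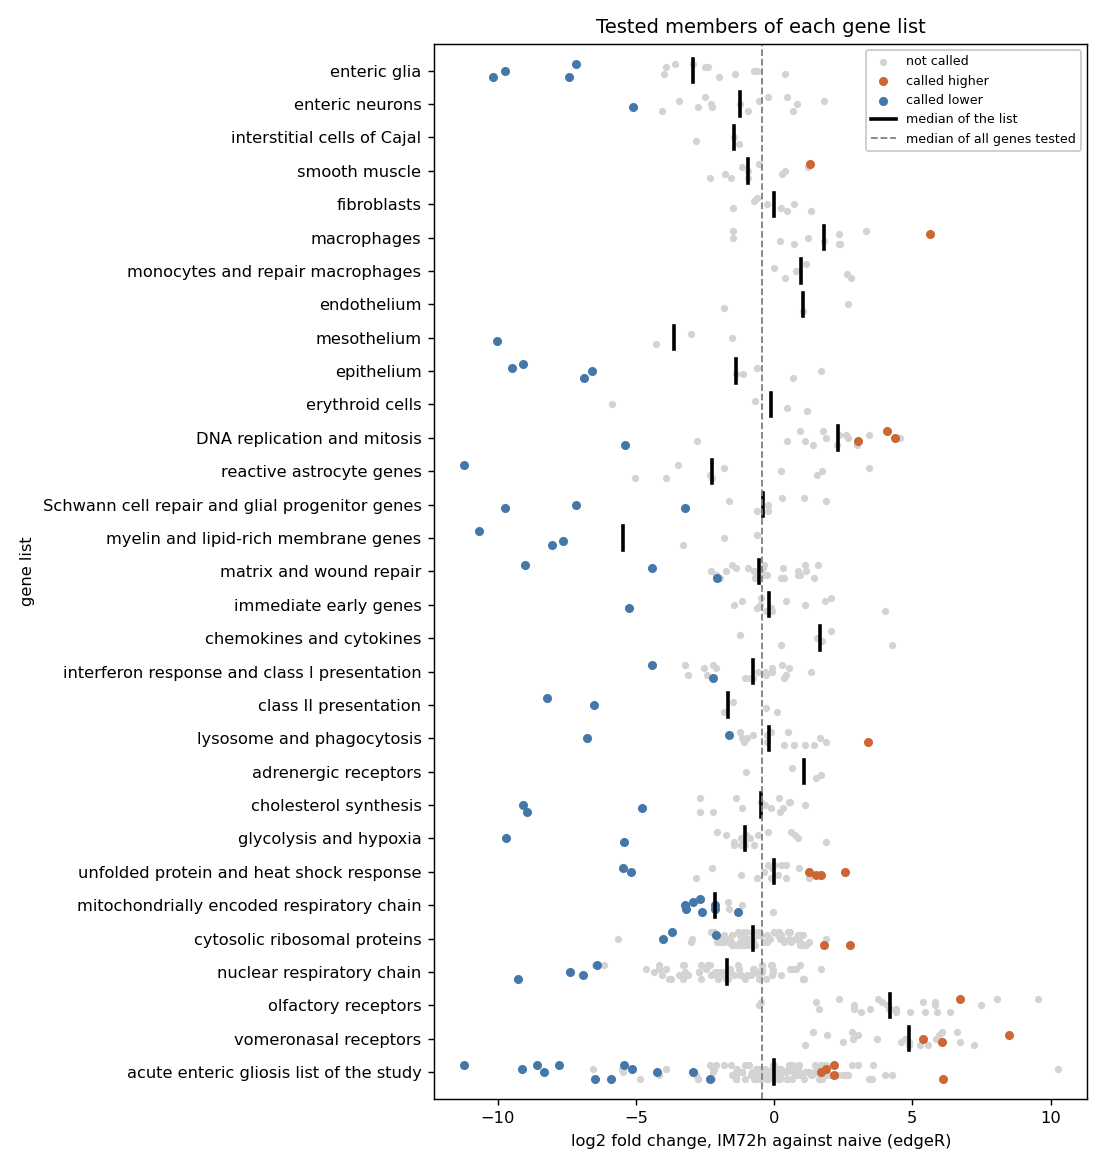
Log2 fold change at IM72h against naïve for the tested members of each gene list with at least 3 of them (x axis), with 1 point per gene, grey for genes without a call, orange for genes called higher and blue for genes called lower, black bars at the median of a list and a dashed line at the median of all genes tested (-0.43). Most mitochondrially encoded genes lie to the left of the dashed line, with mt-Nd5 to its right, chemosensory receptors lie to the right, and most other lists straddle the dashed line.

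Immune genes were described by lists of interferon response and class I presentation, of class II presentation, and of lysosome and phagocytosis. In interferon response and class I presentation 2 of 21 tested genes fell and 0 rose (median -0.76), a share below the 10.8% of all genes, with sums of 2476 to 3320.2 CPM against 4461 to 5227 CPM. *B2m*, the invariant light chain of class I molecules, had 534, 787, 407 and 426 CPM at IM72h against 2639, 2345 and 2569 CPM, a steady fall in all libraries (log2 fold change -2.22, SE 0.360, adjusted p = 0.00945), and the heavy chain *H2-K1* had 1510.0, 502, 624 and 774 CPM against 841, 594 and 466 CPM (adjusted p = 0.814). *Irf7*, a factor of the interferon response, was at least 3.18-fold lower (adjusted p = 0.0271). In total *ME* RNA *B2m* had a log2 fold change of 1.45 (adjusted p = 4.05e-06). Of 6 tested class II genes 2 fell and 0 rose (median -1.65), where 10.8% of all genes tested were called lower. The falls were the transactivator *Ciita*, at least 4.30-fold, and the beta chain *H2-Eb1*, at least 23.04-fold (adjusted p = 0.00986 and 0.0428). Lysosome and phagocytosis genes split, with 1 rise and 2 falls among 18 (median -0.19), where the falls were near the share of all genes. *Ctss*, a cathepsin of antigen-presenting cells, had 104, 408, 301 and 248 CPM against 42.8, 17.5 and 15.7 CPM (log2 fold change 3.38, SE 0.798, adjusted p = 0.0243). *Axl*, a receptor for the uptake of dead cells, had 3.67, 3.44, 0 and 0 CPM against 221, 236 and 192 CPM (adjusted p = 0.0108), and *Lamp1*, a lysosomal membrane protein, 151, 151, 146 and 112 CPM against 399, 496 and 405 CPM (adjusted p = 0.0473). *Lamp1* lost this call in 8 of 18 settings, DESeq2 among them.

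Early response genes gave few calls at 72 h. Of 14 tested immediate early genes, the factors switched on within minutes of a stimulus, 0 rose and 1 fell, *Ier2* (at least 3.16-fold lower, adjusted p = 0.0106), with a median of -0.19. These counts are near the shares of all genes tested (0.934% higher and 10.8% lower). In the earlier comparisons 19 of 21 were higher at IM3h (median 3.38) and 1 of 18 at IM24h (median 0.89). *Jund*, of the same family as *Jun*, was not called (adjusted p = 0.848). *Jun* had a log2 fold change of 3.06 at IM3h (adjusted p = 8.14e-05), 1.75 at IM24h (adjusted p = 0.0687) and -0.60 at IM72h. The metallothionein *Mt1*, which binds zinc, had 10.1, 164, 114 and 1.20 CPM at IM72h and 187, 135 and 165 CPM in naïve mice (adjusted p = 0.793), after a log2 fold change of 5.18 at IM3h (adjusted p = 2.12e-05), and *Mt2* was not called either (adjusted p = 0.521), with a median of -1.95 over both. Of 29 chemokine and cytokine genes 6 were tested and 0 called at IM72h (median 1.64). Of these, *Csf1*, the growth factor of macrophages, and *Ccl6* had adjusted p-values of 0.983 and 0.806, and both had their highest level in library 2, without which their log2 fold changes were below 0 (adjusted p = 0.0996 and 0.632). Of the 22 genes measured, 8 had no count in any IM72h library, and *Il6* and *Cxcl2* were detected in 1 IM72h library each. Of 4 tested adrenergic receptors 0 were called (median 1.07), among them *Adrb1*, with 0, 81.8, 0 and 0 CPM against 32.3, 33.97 and 59.9 CPM (adjusted p = 0.938). Without library 2, the 1 IM72h library with counts, *Adrb1* was called lower (adjusted p = 0.0187). *Adra1a* was another, with 0.918, 71.4, 94.4 and 47.98 CPM against 11.96, 16.9 and 27.5 CPM (adjusted p = 0.786).

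The study's list of acute enteric gliosis was drawn in part from the literature and in part from induction in its own IM3h libraries, so its direction is not independent evidence. Of the 242 genes read from it 209 were in the table, 148 were tested, 5 rose, 12 fell and 131 had no call, at a median log2 fold change of -0.01. The falls were below and the rises above the shares of all genes (10.8% and 0.934%). At IM3h 163 of 231 tested members were higher (median 3.24) and at IM24h 11 of 196 (median 0.91), against the same naïve libraries. Its named falls at IM72h were *S1pr3*, *Smad3*, which relays TGF-beta signals, *Rassf10*, of the RAS association family, and *Rspo1*, an enhancer of WNT signals. The last 3 were at 0 in every IM72h library and at least 8.04-fold, 5.57-fold and 4.64-fold lower (adjusted p = 0.0271, 0.0141 and 0.0103). Its 5 rises, named after their values were seen, were *Akap5*, *Tatdn1*, *Elp6*, *Lrrc17* and the pseudogene *Rpsa-ps12*, with log2 fold changes of 2.17, 2.15, 1.70, 1.88 and 6.11.

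The IM72h libraries were also tested against the 4 *RiboTag* libraries of IM24h, without naïve mice. With edgeR's quasi-likelihood test 0 of 8842 genes were higher (0%) and 0 lower (0%) at an adjusted p under 0.05, while 115 were higher and 426 lower at an unadjusted p under 0.05, and DESeq2 called 48 higher and 55 lower. The lowest adjusted p in edgeR was 0.126, reached by *Sox10* among others. *Sox10* had 7.22 ± 9.80 CPM (SD, n = 4) at IM72h and 388 ± 386 CPM (SD, n = 4) at IM24h (log2 fold change -5.65, SE 1.10), and against naïve mice its log2 fold change was -1.84 at IM24h (adjusted p = 0.279) and -0.93 at IM3h (adjusted p = 0.0502). The differences of *Sox2* and *Gpr37l1*, both at the floor at IM72h, did not pass the test either (adjusted p = 0.247 and 0.249). For other genes named above the log2 fold changes between the time points were -0.11 for *mt-Cytb*, -0.28 for *Calr* and 0.21 for *Itgam* (adjusted p = 0.999, 0.999 and 0.999). The enteric glia list had a median of -2.16 over 13 tested genes, where all genes had -0.26.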

How the data were processed

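Polysome-bound mRNA was pulled down by the HA tag from the small bowel *ME*, and 3′ tag libraries were sequenced. The authors aligned reads to mm10 with STAR in Partek Flow after trimming with cutadapt, per the submitters' processing notes and the study's methods, and deposited estimated counts per transcript for each library, listing transcripts with a total of at least 10. Of the values, 33.0% were not whole. Transcripts of a symbol were added up, which gave 22119 genes, the sums were rounded, and 6 ribosomal RNA-like genes were left out before scaling. Of 4 labelled naïve libraries, 3 were in the tables used, with identical counts of a transcript in each table.

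Groups were compared with edgeR 4.0.16 (R 4.3.3, limma 3.58.1), by TMM scaling, filterByExpr and the quasi-likelihood test, two-sided, with Benjamini-Hochberg adjustment over all genes tested, and a gene was called at an adjusted p under 0.05. Single library values were compared by exact permutation tests. Gene lists were described by calls and medians, without a test. The members, the gene lists and the tests were chosen with earlier results of these data known. Named genes were, in each list, up to 4 called members of largest change without overlap between groups, or where fewer than 2 qualified the 2 most abundant members, then the 10 largest rises and 10 largest falls with a mean of at least 20 CPM in the higher group and without predicted symbols, and the glial and olfactory genes that the study names. Alternatives were DESeq2 1.42.0, other scalings and filters, thinned libraries, a robust spread, a joint fit of 15 libraries and leaving out each library. The tests were checked on simulated counts. Values of some list members are not reported here. Python 3.11.15 was used for the rest. Intervals and bounds cover counting error only. The authors' own comparisons, which hold fold changes and p-values, were not used.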

Additional observations from a re-analysis of the deposited data

Results flagged for a closer look

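Within the 4 IM72h libraries, 8 of 66 sets of values held 1 library whose distance to its nearest neighbour exceeded Dixon's critical share of the range. Chance marks about 1 in 20 sets, or 3.3 of 66. Library 2 was set off by 11723 genes detected, by a summed fibroblast marker level of 3756 CPM, by a *Vim* level of 662 CPM, all above the other 3 libraries, and by the lowest summed level of unfolded protein and heat shock genes, 12634 CPM. Library 1 was set off by its adipocyte markers, at 861 CPM, library 3 by *Itgam*, the myeloid integrin, at 596 CPM, and library 4 by its low erythroid sum of 555 CPM and its low level of *Lmod1*, the smooth muscle actin nucleator, at 1352 CPM.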

How the results depend on the processing

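No paired analysis was possible because the library names carry no replicate numbers that match the labels. The 106 higher and 1227 lower genes at IM72h became 408 and 893 with DESeq2, 45 and 2010 with scaling by 3 reference genes, which moved the median over all genes from -0.43 to -2.08 (log2), 142 and 2049 with the 6 genes kept, 13 and 13 without a filter, 125 and 2275 with a stricter filter and 64 and 360 after thinning. Leaving out 1 library gave 17 to 232 higher genes (lowest without naïve library 3, highest without IM72h library 2) and 465 to 3225 lower genes (the same libraries). IM72h libraries 1, 3 and 4 gave 2337, 2276 and 2114 lower genes when left out, and naïve libraries 1 and 2 gave 25 and 20 higher and 660 and 556 lower genes. With the 12 repeat genes left out, chosen after seeing the data, the numbers were 89 and 1206. The cause of these shifts was not tested, apart from the fewer samples and other genes tested that the settings bring. Against IM24h the 0 and 0 became 48 and 55 with DESeq2 and 22 and 7 without a filter, and 0 to 1 higher when 1 library was left out (1 without IM24h library 1). Members of the gene lists called higher went from 21 to 53 with DESeq2, and those called higher and lower from 21 and 58 to 6 and 138 with the 3 reference genes. Robust spread, TMMwsp, library totals and the fit of 15 libraries left the counts within 1.5 times.

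Of the 77 named genes that were called, 76 never changed direction. Scaling by the 3 reference genes gave log2 fold changes of -0.083 for *Adra1a*, -1.39 for *Col1a1*, -1.38 for *Csf1*, -0.44 for *Fn1*, -0.64 for *Hba-a1*, -1.22 for *Hba-a2*, -1.13 for *Jund*, -0.29 for *Lmod1*, -1.37 for *Myh11*, -0.54 for *Pecam1*, -1.20 for *S100b* and -1.28 for *Syt1*, each positive before, and thinning gave -0.028 for *Csf1*. With 1 library left out, genes without a call ranged from -1.33 to 2.54 (*Ccl6*), -0.20 to 0.44 (*Col1a1*), -5.10 to 0.67 (*Csf1*), -0.092 to 0.65 (*Hba-a2*), -0.077 to 0.61 (*Jund*), -0.32 to 0.43 (*Myh11*), -3.55 to 2.30 (*Plin1*), -7.97 to 2.67 (*Ptprc*), -0.020 to 0.71 (*S100b*) and -0.17 to 0.77 (*Syt1*), where *Ccl6*, *Col1a1*, *Csf1*, *Myh11* and *Ptprc* turned lowest without IM72h library 2 and *Plin1* without library 4. Of the 77 calls, 52 to 58 were lost without 1 naïve library, 69 without a filter, 20 in the fit of 15 libraries, 15 after thinning, 12 with DESeq2, 9 with the 3 reference genes and at most 7 in each of the others. Depth limits the IM72h values, since at 510307 to 1356005 counts kept a gene can have 0 counts in a library in which it is expressed.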

Other observations

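Among the 20 genes of highest mean level at IM72h, several without a list of their own stood above all naïve libraries. These were chosen after their values were seen. *Ptms*, the parathymosin that binds linker histones, had 7197, 2218, 6566 and 5191 CPM at IM72h and 448, 253 and 522 CPM in naïve mice (log2 fold change 3.70, adjusted p = 0.00890, edgeR). *Cald1*, the caldesmon of the contractile apparatus, had 12754, 9358, 14084 and 8935 CPM against 5704, 4328 and 5510.4 CPM (log2 fold change 1.12, adjusted p = 0.0310), and the brain creatine kinase *Ckb* 4308, 4995, 3702 and 3306 CPM against 2384, 1278 and 1942 CPM (log2 fold change 1.13, adjusted p = 0.0558). *Malat1*, a nuclear long noncoding RNA, overlapped between the groups with 23529, 31787, 10142 and 12194 CPM against 21582, 19738 and 38147 CPM (log2 fold change -0.45, adjusted p = 0.750).

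By transcript class, coding transcripts of nuclear genes took 60.8% ± 3.56 (SD, n = 4) of the counts kept at IM72h and 67.5% ± 1.55 (SD, n = 3) in naïve mice. Other transcripts of coding genes, such as retained introns, took 24.2% ± 2.12 against 18.2% ± 0.795, pseudogenes 3.91% ± 0.752 against 1.80% ± 0.220, and small RNAs with other classes 0.646% ± 0.260 against 0.134% ± 0.0196, and in each of the 4 classes the groups did not overlap. No test was made of these shares.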
